A study of Mus musculus with 6 samples.

Results

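Heat shock proteins and their co-chaperones were followed in mouse granulosa cell tumors and in normal granulosa cells. The genes were taken by symbol from the array's annotation: Hspa, Hspb, Hspd, Hspe, Hsph and Hsp90 genes, the Dnaja, Dnajb and Dnajc genes, and Bag1 to Bag6. This gave 76 genes of the 18193 that carried a probe set with a single symbol, and each gene was represented by its brightest probe set, on average over the 6 arrays. No probe set named Hsp90ab1 in the annotation used here, and Dnajc19 shared all its probe sets with a pseudogene, so neither was among the 76.

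Chaperones hold unfolded proteins and help them to fold. Hsp70 proteins bind and release short stretches of a client in a cycle driven by ATP; J-domain proteins, encoded by the Dnaj genes, deliver clients and start the ATP step, and nucleotide exchange factors such as the Bag proteins and Hsp110 end it. Hsp90 finishes the folding of kinases and steroid receptors, small heat shock proteins hold aggregating proteins without ATP, and separate sets of chaperones work in the cytosol, the endoplasmic reticulum (ER) and mitochondria. Heat shock factor 1 induces many of the cytosolic members in stressed cells, and the unfolded protein response induces many of the ER members.

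Total RNA was measured on 1 Affymetrix expression array per sample. The 3 tumor samples were granulosa cell tumors of Smad1/5/8 mutant mice, without treatment (Smad8 is listed on the array as Smad9); whether each came from a different mouse is not said. The 3 control samples were granulosa cells isolated from wild-type C57BL/6J;129S5/SvEvBrd females aged 21 days. These females had received PMSG, a gonadotropin from pregnant mares that makes follicles grow, 44 to 46 hours before collection, and each sample pooled 2 to 3 of them. For the tumor mice the sources used here give no strain, age or sex, and no account of how the Smad genes were mutated. Tumor tissue was kept in an RNA storage solution and frozen before extraction, and the protocol of the wild-type samples does not mention this. Genotype, tissue against isolated cells, priming, storage and the processing software differed together between the groups and cannot be told apart.

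After scaling, the trimmed mean signal was 500 on each array, and 22599 to 25057 probe sets per array were at 100 or more. With 3 samples per group the number of arrays limits the precision. The p-values weigh the group difference against the spread between these samples. That spread is not the one between animals, since wild-type samples were pools and the tumors are not known to come from different mice. Smad1 had signals of 829.6, 855.6 and 925.7 in wild type against 2076, 2861 and 2354 in tumors, Smad5 1246, 1078 and 1273 against 2435, 2815 and 3108, and Smad9 stayed below 100 on every array. These signals do not check the labels, since the mutated parts are not known here. Markers of other cell types separated the groups: all 14 tested smooth muscle and pericyte genes and all 13 tested macrophage genes were higher in tumors, as were 8 of 15 endothelial and 9 of 11 fibroblast genes. The fibroblast gene Fbln1 was lower, with a mean of 10427 in wild type against 3194 in tumors. The summed signal of 15 smooth muscle and pericyte markers was 6802 to 8662 in the wild-type samples and 25837 to 45365 in the tumors, with 4 of the 15 below 100 in every wild-type sample and 0 in every tumor. Sums were 2588 to 3126 against 15145 to 18757 for 16 macrophage markers, 23541 to 27434 against 47197 to 70790 for 11 fibroblast markers, and 2810 to 3861 against 8000 to 16164 for 15 endothelial markers. Oocyte markers were lower in tumors (5 of 6 tested; the 10 on the array summed to 1069 to 1847 against 525 to 827), and of 6 theca and interstitial markers 3 were higher and 1 lower. All 13 named granulosa markers were above 100 on an array of each group, with sums of 145372 to 165587 and 121714 to 126890; 2 were called higher and 4 lower in tumors. Of 12 skeletal and cardiac muscle markers, 11 were below 100 in every wild-type sample and 10 in every tumor. Actb signal at its 3' end over its 5' end, which reflects RNA quality, was on the log2 scale 0.328 to 0.669 in wild-type samples and 0.570 to 0.966 in tumors, and that of Gapdh -0.455 to -0.324 and -0.469 to -0.244. The part of other cell types and of RNA quality in the results below was not tested.

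Stretches of promoter are shown for 2 classical control elements, because the heat shock and ER members are textbook targets of these elements. The heat shock element was searched as GAA, any 2 bases, TTC, any 2 bases, GAA on both strands, and the ER stress element as CCAAT, any 9 bases, CCACG on both strands. The windows were RefSeq promoters of build GRCm38.p6, from 250 bases before to 50 after a gene's start, and 63 of the 76 genes had 1 or more. The heat shock element occurred in 4 of these 63 genes (6.35%), against 0.662% of the 27025 genes with a window and 0.603% of 32851 windows. The ER stress element occurred in 3 of 63 (4.76%), against 0.137% of genes and 0.119% of windows. No window of the 63 genes held both elements. Capitals mark the matched letters.
Hspa5, chr2:34772010-34772058, plus strand: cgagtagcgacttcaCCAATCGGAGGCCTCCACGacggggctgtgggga
Hsp90b1, chr10:86705518-86705566, minus strand: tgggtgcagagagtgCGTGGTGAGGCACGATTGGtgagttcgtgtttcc
Dnajc3, chr14:118937812-118937860, plus strand: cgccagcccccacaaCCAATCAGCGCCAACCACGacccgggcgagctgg
Hspe1 and Hspd1, chr1:55088059-55088076, plus strand: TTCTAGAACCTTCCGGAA
Hsph1, chr5:149636288-149636300, minus strand: TTCTGGAAAGTTC
The ER stress element ended 47 bases before the start of Hspa5, 89 before that of Hsp90b1 and 87 before that of Dnajc3. The 18 bases on chromosome 1 hold 2 overlapping heat shock elements and lie in the windows of both Hspe1 and its neighbour Hspd1, 72 and 127 bases before their starts, within an annotated gene body. The Hsph1 element lies just after the start, and Dnajb6 was the fourth gene with a heat shock element. A match is a description of the letters, and genes without a match may carry elements elsewhere or with other letters.

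Tumors had higher signals of the small heat shock protein genes Hspb8, Hspb2 and Hspb1, of the Hsp110 gene Hsph1 and of the co-chaperone genes Bag2 and Bag1. Also higher were the Hsp70 genes Hspa12a, Hspa9 and Hspa8 and the J-protein genes Dnajc2, Dnajb2, Dnaja3 and Dnajc5. Of the higher genes, only Hspb8 and Bag2 passed in all 6 fits without 1 sample. Lower in tumors were the axonemal J-protein gene Dnajb13 and the ER J-protein genes Dnajb14, Dnajb11, Dnajc16 and Dnajc10. The mitochondrial Dnajc15 and the inducible Hsp70 gene Hspa1a were also lower. Genes that reached 100 on 3 or more arrays were compared as log2(signal + 32) with limma, and a call means a p under 0.05 after Benjamini-Hochberg adjustment over all of them; changes below are log2 values, tumor minus wild type, on that scale. Of the 76 genes, 68 passed this filter; 13 were called higher and 7 lower. The 20 calls are 29.4% of the 68, against 27.2% of all 11600 genes tested, so the share called lies near the background. Calls were 14.5% of all tested genes for higher and 12.6% for lower. In a bulk sample, fewer cells that express a gene and less of its RNA per cell cannot be told apart. Without the filter, 13 of all 76 genes were called, against 12.2% of 18193. The 3 tumors lay all above the 3 wild-type samples in 22 of the 68 and all below in 15, which is 37 genes, where 46.3% of all tested genes did not overlap. The median log2 change was 0.13 for the 68 and -0.00486 for all genes tested, and 39 of the 68 lay within 0.5 of 0.

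**Figure D1:**
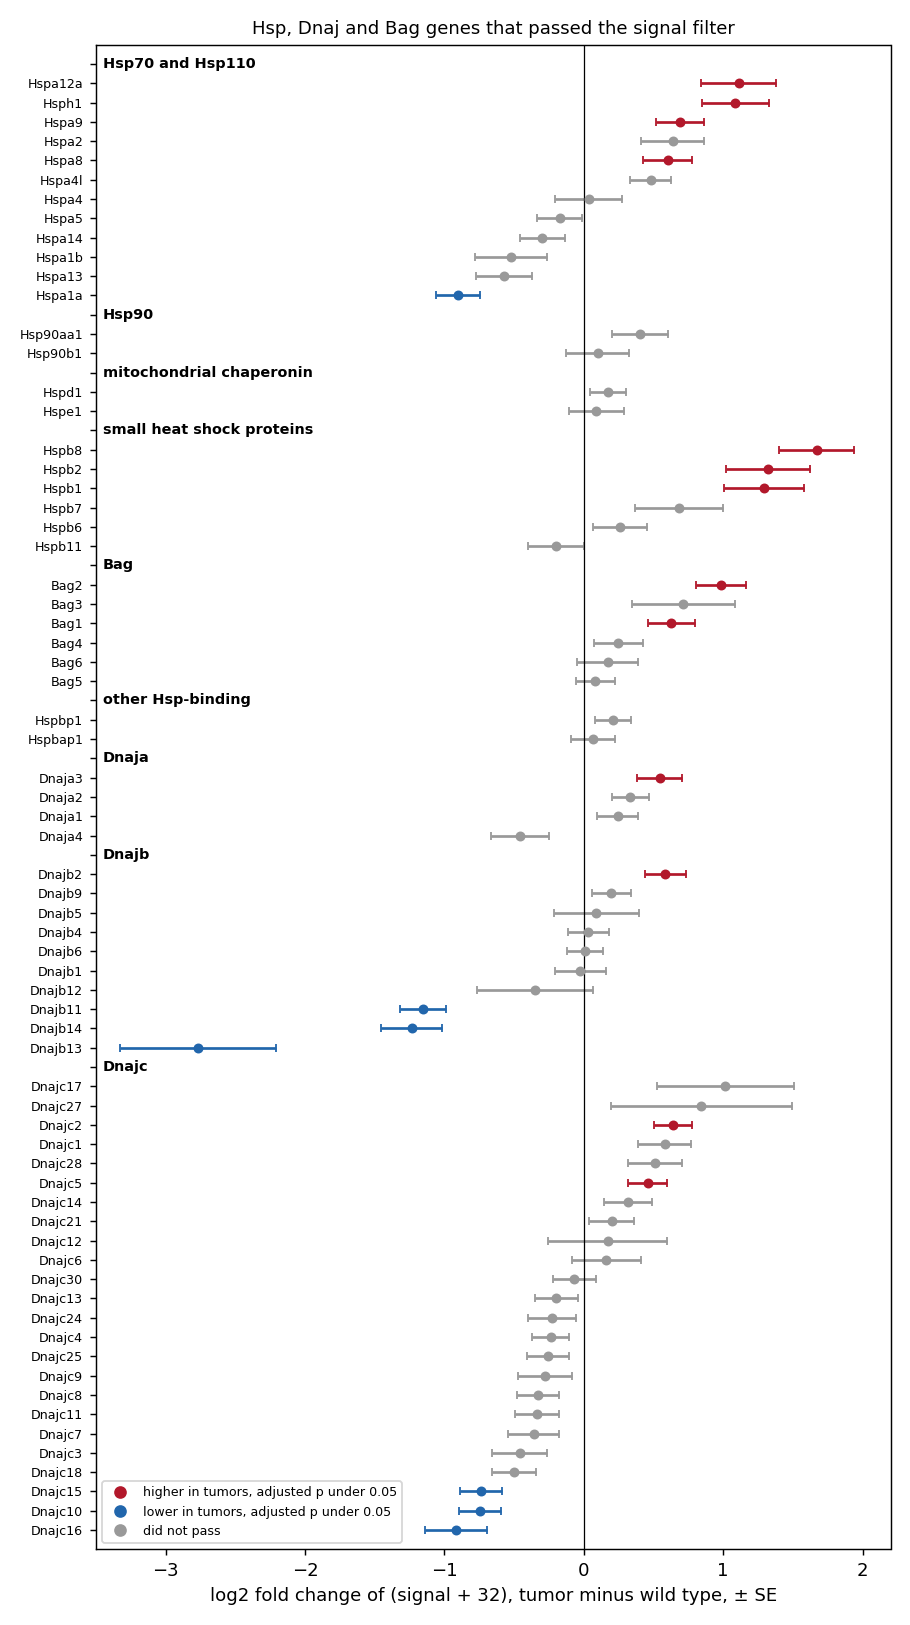
Log2 fold change (tumor minus wild type, on the log2(signal + 32) scale) of the 68 tested genes by family, with limma's standard error as bars. Red points are the 13 genes called higher and blue points the 7 called lower; Hspb8 lies farthest right at 1.67 and Dnajb13 farthest left at -2.77.

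Single samples and the scaling bore on these counts. Without wild-type replicate 1 the calls were 2 higher and 5 lower, without wild-type replicate 2 and without tumor replicate 2 they were 6 and 6, and without wild-type replicate 3 they were 8 and 7. The genes called in all 6 fits without 1 sample were Hspb8, Bag2, Hspa1a, Dnajb11, Dnajb13, Dnajb14 and Dnajc15, while Dnaja3 and Dnajc5 were called in none of them. All directions are relative to the mean of each array: over all genes the split was 1686 higher and 1467 lower, against 1733 and 916 with arrays scaled to their medians. Scaled to the bacterial transcripts added at hybridisation, the split was 376 and 7796, the median of all genes moved to -1.0, and 0 of the 67 genes then tested were higher and 39 lower. Under that scaling Hspb8, Hspb2, Hspb1, Hspa12a and Hsph1 kept a positive sign without passing; the other 8 higher genes turned negative, each above the shifted median.

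Among the small heat shock proteins, which bind unfolding proteins and hold them soluble, 6 of 8 genes passed the filter; 3 rose, 0 fell and 3 did not pass, with a median log2 change of 0.99, beside 14.5% higher, 12.6% lower and a median of -0.00486 over all genes. Hspb8 encodes the partner of Bag3 in clearing damaged proteins. It read 143, 159 and 175 in wild type against 658, 367 and 782 in tumors. The groups did not overlap, and tumor 2 was the lowest tumor. Hspb8 rose by 1.67 (SE 0.27, adjusted p = 0.00572), and of its other probe sets 1 gave 1.25 (SE 0.31) and 1 gave 0.89 (SE 0.29), which did not pass.

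Hspb1, the Hsp25 gene of the mouse, whose protein also caps actin filaments, read 814, 1254 and 905 in wild type against 2355, 3523 and 1729 in tumors. Every tumor lay above every wild-type sample, with tumor 2 highest. It rose by 1.29 (SE 0.29, adjusted p = 0.0172) and another probe set gave 1.39 (SE 0.28). The call did not hold without wild-type replicate 1 (adjusted p = 0.0685) or 3 (0.0573). Hspb2, a small heat shock protein gene of muscle, read 73.8, 114 and 108 against 449, 294 and 184. Its wild-type signals lay near the signal minimum of 100, so the size of its rise of 1.32 (SE 0.30, adjusted p = 0.0184) depends on the pseudocount, from 0.99 with 100 to 1.57 with 1. It lost its call without wild-type replicate 1 (adjusted p = 0.0715).

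The remaining small heat shock protein genes did not pass. Hspb6, a gene of muscle, read 291, 254 and 294 against 270, 444 and 328, and Hspb7, a gene of heart and muscle, 51.6, 38.5 and 121 against 162, 123 and 91.7; both overlapped between the groups. Hspb11, an intraflagellar transport gene by function, had a log2 change of -0.20 (SE 0.20). Hspb3 and Hspb9 stayed below 100 on every array. Cryab, the alpha-B crystallin gene that lies next to Hspb2 on the chromosome and belongs to the same protein family, read 94.8, 55.0 and 89.3 against 838, 577 and 931. Cryab was at least 7.67-fold higher (adjusted p = 0.000579), with the dimmer group set to a signal of 100. Beside these genes stand the smooth muscle and pericyte sums, which were 45158, 45365 and 25837 in tumors 1 to 3. Among tumors, Hspb1, Hspb2 and Hspb7 were lowest in tumor 3, as that sum was, Hspb6 was lowest in tumor 1, and Hspb8, Hspb11 and Cryab were highest in tumor 3.

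**Figure D2:**
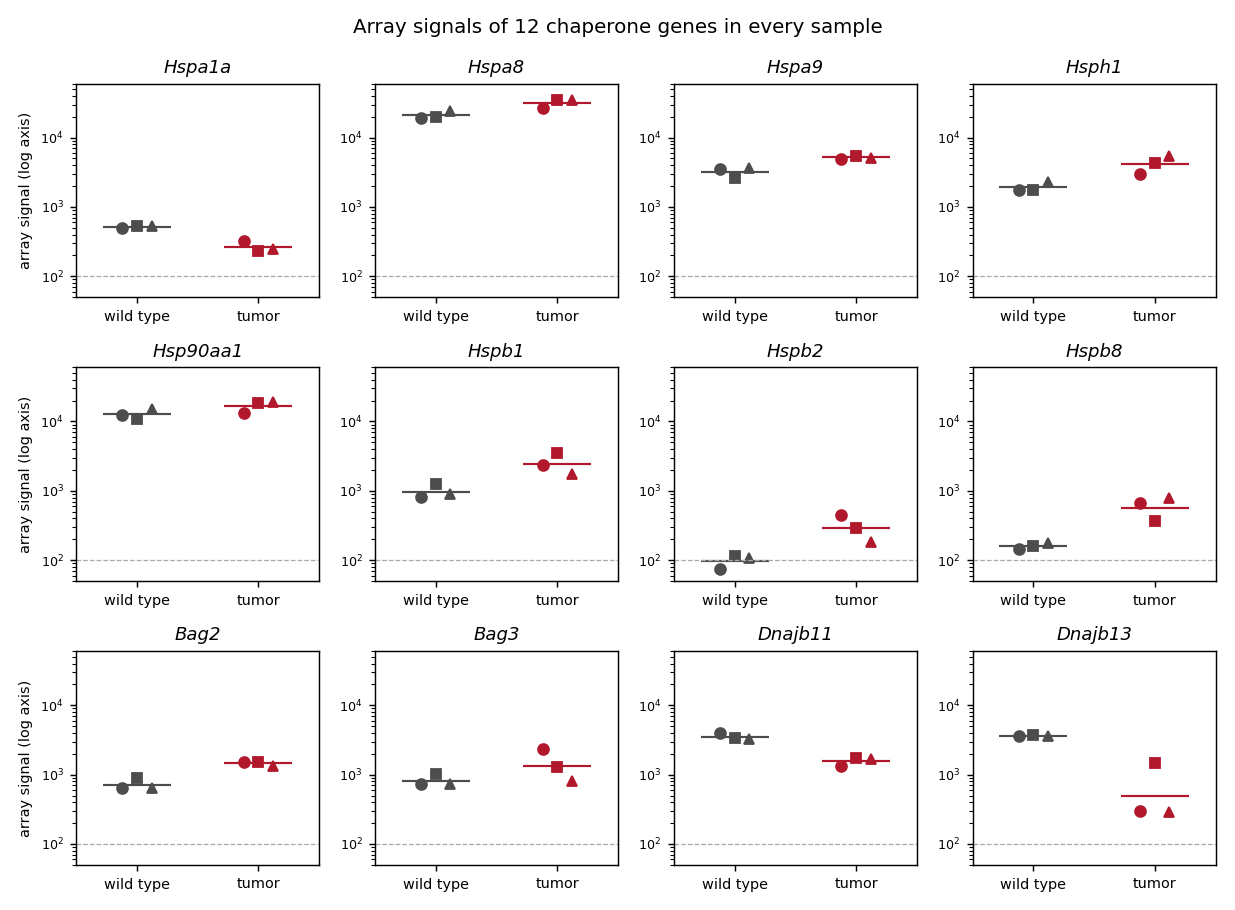
Array signal (log axis) of 12 genes in the 3 wild-type samples (grey) and the 3 tumors (red); circles, squares and triangles are samples 1, 2 and 3 of each group, bars the means of the log values, and the dashed line the signal minimum of 100. Hspb8, Hspb1, Hsph1 and Bag2 have every tumor above every wild-type sample, Hspa1a, Dnajb11 and Dnajb13 every tumor below, and Hsp90aa1 and Bag3 overlap.

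The Hsp70 and Hsp110 genes moved in both directions: of 12 tested among 14, 4 rose, 1 fell and 7 did not pass. That is 41.7% called, beside 27.2% of all genes (14.5% higher and 12.6% lower). In the fits without wild-type replicate 1 or without wild-type replicate 2, 0 genes of this family were called higher. Hsph1 encodes an Hsp110 protein that exchanges the nucleotide of Hsp70 and carries the heat shock element shown above. It read 1738, 1784 and 2279 in wild type against 2987, 4329 and 5390 in tumors. The groups were apart, and the lowest tumor was tumor 1. It rose by 1.09 (SE 0.24, adjusted p = 0.0171), and a further probe set gave 0.84 (SE 0.20). The call did not hold without wild-type replicate 1 (adjusted p = 0.0686) or 2 (0.0544).

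Hspa8, the constitutive cytosolic Hsp70, was among the brightest signals on the arrays. It read 19368, 19710 and 24400 against 26915, 34370 and 35334, with no overlap, and rose by 0.60 (SE 0.18, adjusted p = 0.0419). This call rests on the choice of probe set and samples. The probe set is of a type that can bind related transcripts, and its adjusted p was 0.0501 when every probe set was tested; the others gave 0.51, 1.17 and, for the dimmest, -1.54 (SE 0.37, adjusted p = 0.0240). That dimmest one read 782, 2266 and 1149 against 332, 442 and 492. The call of Hspa8 also failed in each fit without 1 sample except that without tumor replicate 1 (highest adjusted p 0.145), and with quantile normalization (log2 change 0.18).

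Hspa9, the mitochondrial Hsp70 also called mortalin, read 3505, 2597 and 3656 against 4972, 5510 and 5157, with wild-type replicate 2 lowest. It rose by 0.69 (SE 0.17, adjusted p = 0.0256); its 3 other passing probe sets had the same sign, at 0.18 to 0.33, and none passed. The mean of all its passing probe sets gave 0.35 (adjusted p = 0.220), and the call did not hold without wild-type replicates 1 or 2 or tumor replicates 1 or 2 (highest adjusted p 0.0741). Hspa12a, an atypical and distant Hsp70 relative, read 151, 132 and 197 against 525, 406 and 251, which gave 1.11 (SE 0.27, adjusted p = 0.0229). Tumor 3 lay closest to the wild-type samples. A second probe set gave 1.06, and the call did not hold without wild-type replicates 1 or 2 or tumor replicates 1 or 2 (highest adjusted p 0.0800).

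The inducible Hsp70 genes Hspa1a and Hspa1b, which lie side by side and encode nearly identical proteins, had lower mean signals in tumors, and Hspa1a passed. Hspa1a read 496, 535 and 528 against 319, 232 and 245. The groups did not overlap, and Hspa1a fell by 0.90 (SE 0.16, adjusted p = 0.00776), a call kept under all 19 alternatives. Hspa1a had 1 probe set, so the choices of probe set could not change that value. Hspa1b read 1496, 1351 and 2169 against 1558, 942 and 988, with tumor 1 inside the wild-type range and a log2 change of -0.52 (SE 0.26, adjusted p = 0.178); its other probe sets gave -0.30 and -0.15. Because the coding sequences are so alike, signal of one gene on the other's probes could not be separated here, and the Hspa1a value is uncertain in that respect. Hspa1l, their germ cell relative, stayed below 100 on every array.

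The Hsp70 genes that did not pass included Hspa4l, an Hsp110 relative (log2 change 0.48, SE 0.15, adjusted p = 0.0518), and Hspa2, a gene of germ cells (0.64, SE 0.23, adjusted p = 0.0756), both with every tumor above every wild-type sample. Hspa13, an Hsp70 relative of the ER membrane system, had every tumor below (-0.57, SE 0.20, adjusted p = 0.0767). Of its 3 other passing probe sets, 2 were called lower at -0.90 and -1.07 and the third gave -0.54. Hspa4, an exchange factor for Hsp70, and Hspa14, a ribosome-associated partner of Dnajc2, gave 0.04 and -0.30, with a further Hspa4 probe set called higher at 0.69 and a further Hspa4l one at 0.80. Hspa12b, which is known from endothelial cells, failed the filter with 6.10, 13.3 and 16.3 against 115, 89.5 and 52.8. The 15 endothelial markers summed to 2810 to 3861 in wild type and to 8000, 16164 and 9203 in tumors 1 to 3. Among tumors, Hspa12b was highest in tumor 1, where that sum was lowest. Without the filter it was called higher (1.39, adjusted p = 0.0166), the 1 gene of the 76 that gained a call there.

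Of the Hsp90 genes and the mitochondrial chaperonin, none passed. Hsp90aa1, the inducible cytosolic Hsp90, read 12392, 10965 and 14908 against 13336, 18489 and 18972, which gave 0.40 (SE 0.20, adjusted p = 0.177). Tumor 1 lay within the wild-type range. Hsp90b1, the ER Hsp90 also called Grp94, read 16445, 16447 and 17496 against 13078, 18875 and 23576, with tumors on both sides of the wild-type samples and a log2 change of 0.10 (SE 0.22). Its second probe set disagreed: it read 12448, 14388 and 12217 against 7885, 7797 and 7929, which gave -0.72 (SE 0.15, adjusted p = 0.0138 with every probe set tested). No direction is given for Hsp90b1. Hspd1 and Hspe1, which encode the ring and the lid of the chaperonin and share the promoter bases shown above, gave 0.17 (SE 0.13) and 0.09 (SE 0.20). Hspd1 read 11915, 12347 and 12486 against 13318, 14802 and 13403, and Hspe1 7610, 6361 and 8368 against 6210, 8786 and 8939.

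Several of the Bag genes encode exchange factors that bind Hsp70 through a Bag domain. All 6 Bag genes were tested, 2 rose, 0 fell and 4 did not pass. The share called was 33.3%, beside 27.2% of all genes (14.5% higher and 12.6% lower). Bag2, which holds back the ubiquitin ligase that marks Hsp70 clients, read 643, 909 and 636 against 1508, 1530 and 1330. The tumors lay close together and above all wild-type samples, and Bag2 rose by 0.98 (SE 0.18, adjusted p = 0.00893) relative to the array mean, though not to the hybridisation controls (-0.032). Bag1, which links Hsp70 to the proteasome, read 2912, 3241 and 3033 against 4091, 5693 and 4595 and rose by 0.63 (SE 0.17, adjusted p = 0.0304). Removing any single wild-type sample, or tumor replicate 2, ended that call, with adjusted p up to 0.112, and the sign turned with the hybridisation controls (-0.41).

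Bag3, the partner of Hspb8 and a target of heat shock factor 1, differed widely between the tumors, at 2348, 1283 and 798, against 723, 1006 and 722 in the wild-type samples. Tumor 3 lay inside the wild-type range and tumor 1 above it. The log2 change was 0.71 (SE 0.37, adjusted p = 0.193), and it passed without tumor replicate 3 (1.08, adjusted p = 0.0422). Bag4, Bag5 and Bag6 gave 0.25, 0.08 and 0.17. The 2 other genes named as binders of heat shock proteins were Hspbp1, which binds Hsp70, and Hspbap1, which binds Hspb1, and they gave 0.21 and 0.07. Hspbp1, an exchange factor, read 717, 721 and 679 against 843, 812 and 805, a small difference without overlap (adjusted p = 0.263).

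J-domain proteins form the largest group, with 42 genes. Of the 4 Dnaja genes, 1 rose and 3 did not pass; of 10 tested Dnajb genes, 1 rose, 3 fell and 6 did not pass; of 24 tested Dnajc genes, 2 rose, 3 fell and 19 did not pass. The shares called were 25%, 40% and 20.8%, beside 27.2% of all genes (14.5% higher and 12.6% lower). The median log2 changes were 0.29, -0.01 and -0.21, beside -0.00486 over all genes. Dnajb13 had the largest change of the 68 genes. It encodes a J protein of sperm tails and cilia. It read 3624, 3678 and 3576 in wild type, which agreed closely, against 297, 1455 and 285 in tumors. Tumor 2 lay between the wild-type samples and the other 2 tumors. Dnajb13 fell by 2.77 (SE 0.56, adjusted p = 0.0126), and it was called under all 19 alternatives.

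Of 13 genes placed in the ER, all tested, 4 fell, 0 rose and 9 did not pass, and the median log2 change was -0.46. The share called was 30.8%, near the 27.2% of all genes. In 8 of the 13 every tumor lay below every wild-type sample and in 2 every tumor above. Of all 11600 genes tested, 2619 had every tumor below and 2750 every tumor above, together 46.3%. Dnajb11, a soluble J protein that hands unfolded proteins to Hspa5, read 3926, 3400 and 3287 against 1329, 1747 and 1666. No tumor reached the wild-type range, and it fell by 1.15 (SE 0.16, adjusted p = 0.00371). Dnajb14, a J protein of the ER membrane, read 1145, 981 and 1006 against 519, 489 and 300 and fell by 1.23 (SE 0.22, adjusted p = 0.00796), and its second probe set gave -1.63 (SE 0.23). Both calls were kept under all 19 alternatives.

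Dnajc10, the ER J protein that also reduces disulfide bonds, read 3086, 2852 and 2486 against 1500, 1766 and 1718. It fell by 0.74 (SE 0.15, adjusted p = 0.0129), with -0.82 and -0.95 in its other probe sets, and lost its call without wild-type replicate 1 (adjusted p = 0.0627) or with median scaling (0.0584). Dnajc16, a J protein of the ER membrane, read 495, 718 and 466 against 352, 249 and 238 and fell by 0.92 (SE 0.22, adjusted p = 0.0226), and its second probe set gave -0.62 (SE 0.17). The call of Dnajc16 did not hold without wild-type replicates 1 or 2 or tumor replicates 2 or 3 (highest adjusted p 0.0649).

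Hspa5, the ER Hsp70 known as BiP, which keeps the ER stress sensors inactive while it is free, did not pass. It read 23809, 25659 and 25987 against 18949, 22727 and 25707, which gave -0.17 (SE 0.16, adjusted p = 0.456); another probe set gave -0.09 and a dimmer one -0.88 (SE 0.17, adjusted p = 0.0120 with every probe set tested). With quantile normalization Hspa5 passed as lower (-0.53, adjusted p = 0.0235). Dnajc3, which restrains the stress kinase of the ER and carries the ER stress element shown above, had every tumor below every wild-type sample without passing (-0.46, SE 0.20, adjusted p = 0.126). Dnajc18 missed narrowly (-0.50, SE 0.16, adjusted p = 0.0532), while its other probe sets gave -0.04 and 0.06 with overlapping groups. Dnajb9, an inducible J protein that binds the stress sensor Ern1, and Dnajc1 had every tumor above every wild-type sample, at 0.20 (SE 0.14, adjusted p = 0.331) and 0.58 (SE 0.19, adjusted p = 0.0615). All 3 genes with the ER stress element, Hspa5, Hsp90b1 and Dnajc3, were among the 9 that did not pass. In the list of other ER genes described next, 20 genes had a window and 5 held this element: Creld2, a folding factor of the ER, which fell (-0.89, SE 0.16, adjusted p = 0.00749), and Calr, Canx, Pdia6 and Syvn1, which did not pass.

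A list of 24 further ER folding and unfolded protein response genes gave the surroundings: 9 fell, 1 rose and 14 did not pass, so 41.7% were called, beside 27.2% of all genes (12.6% lower), and the median log2 change was -0.42. Sdf2l1, which works with Dnajb11 on Hspa5, read 1715, 1685 and 1861 in wild type against 452, 448 and 266 in tumors and fell by 2.12 (SE 0.22, adjusted p = 0.00121). Pdia4, a disulfide isomerase, read 3061, 3725 and 2498 against 944, 1176 and 989 and fell by 1.54 (SE 0.19, adjusted p = 0.00218). Both were called under all 19 alternatives. Ddit3, a transcription factor of prolonged ER stress also called CHOP, read 266, 356 and 377 against 553, 462 and 605 and rose by 0.65 (SE 0.18, adjusted p = 0.0364) relative to the array mean, though not to the hybridisation controls (-0.32). That call failed in each fit without 1 sample except that without tumor replicate 2 (highest adjusted p 0.130).

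**Figure D3:**
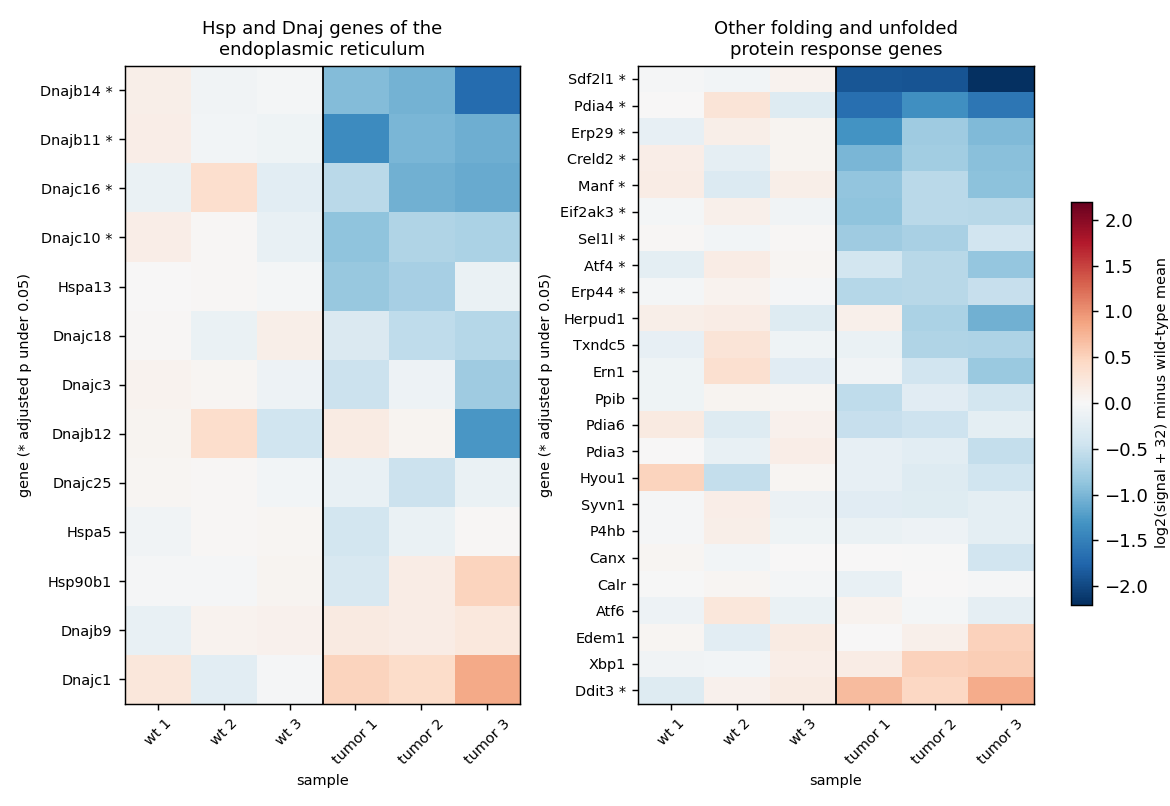
Heat map of log2(signal + 32) minus the wild-type mean for 13 ER-resident Hsp and Dnaj genes (left) and 24 other ER folding and unfolded protein response genes (right), by sample; blue is lower and red higher than the wild-type mean, and stars mark adjusted p under 0.05. Dnajb14, Dnajb11, Dnajc16 and Dnajc10 are blue in all 3 tumors, as are Sdf2l1 and Pdia4, while Hspa5 stays near 0.

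Among 8 mitochondrial members, 2 rose (Hspa9 and Dnaja3), 1 fell (Dnajc15) and 5 did not pass, with a median log2 change of 0.13. The share called was 37.5%, beside 27.2% of all genes (14.5% higher and 12.6% lower). Dnajc15, a J protein of the inner mitochondrial membrane that is known as a restraint on the respiratory chain, read 3014, 3052 and 3661 against 2011, 1760 and 2017. Every tumor lay below every wild-type sample, and it fell by 0.74 (SE 0.15, adjusted p = 0.0128), a call kept under all 19 alternatives. Dnaja3, the J partner of Hspa9 in the matrix, read 918, 772 and 777 against 1095, 1135 and 1423. It rose by 0.54 (SE 0.16, adjusted p = 0.0460) relative to the array mean, though not to the hybridisation controls (-0.47). Its call did not hold without any 1 of the 6 samples, with adjusted p from 0.0590 to 0.133. A second Dnaja3 probe set gave 0.13 and did not pass. Of 10 genes of mitochondrial protein quality control, 1 rose, 2 fell and 7 did not pass, so 30% were called, near the 27.2% of all genes. Clpx, the unfoldase of the Clp protease, rose by 0.90 (SE 0.21) and Clpb, a mitochondrial disaggregase, fell by 0.74 (SE 0.15). Neither call held without wild-type replicate 1 (adjusted p = 0.0718 and 0.0653) or without wild-type replicate 3 (0.0585 and 0.0508), the mean over probe sets gave 0.26 for Clpx, and Clpx turned to -0.12 with the hybridisation controls.

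Of the cytosolic J proteins, 3 rose relative to the array mean and turned negative with the hybridisation controls. Dnajc2, which acts at the ribosome on emerging chains, read 1196, 1377 and 1186 against 2028, 1979 and 1895 and rose by 0.64 (SE 0.14, adjusted p = 0.0152; -0.39 with the controls). Its second probe set gave 0.07 and did not pass, the mean over both gave 0.35 (adjusted p = 0.0805), and the call did not hold without wild-type replicate 1 (0.0712) or 3 (0.0580). Dnajb2, a J protein known from neurons that binds ubiquitin, read 464, 591 and 532 against 844, 802 and 773 and rose by 0.59 (SE 0.15, adjusted p = 0.0256; -0.41). That call did not hold without wild-type replicates 1 or 3 or tumor replicates 1 or 2 (highest adjusted p 0.108). Dnajc5, the cysteine string protein of secretory vesicles, read 1991, 2087 and 1775 against 2732, 2789 and 2546 and rose by 0.46 (SE 0.14, adjusted p = 0.0471; -0.58). It passed in 0 of the 6 fits without 1 sample, with adjusted p from 0.0536 to 0.150.

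Dnajb1, the main stress-inducible partner of Hsp70 and a classical target of heat shock factor 1, read 1809, 1791 and 2221 against 1885, 1585 and 2277. The groups overlapped, with a log2 change of -0.03 (SE 0.18, adjusted p = 0.930) and -0.31 in its second probe set. A core list of 9 cytosolic genes held heat-inducible members and the constitutive Hspa8. Of the 9, 3 rose (Hspb1, Hsph1 and Hspa8), 1 fell (Hspa1a) and 5 did not pass (Hspa1b, Hsp90aa1, Dnaja1, Dnajb1 and Bag3). The share called was 44.4%, beside 27.2% of all genes. It includes the Hspa8 call, which rests on the choice of probe set and samples. Dnaja1, a farnesylated J protein of the cytosol, gave 0.24 (SE 0.15), while its other probe sets gave 0.46 and, called higher, 0.87. The stress-inducible genes of other families gave 1 call among 8, Cryab, and 7 that did not pass, among them Hmox1 (-0.40, SE 0.33), Mt1 (0.48, SE 0.25) and the collagen chaperone gene Serpinh1 (-0.05, SE 0.17).

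The other J-protein genes did not pass. Every tumor lay above every wild-type sample for Dnaja2 (log2 change 0.33), Dnajc14 (0.32) and Dnajc28 (0.51), and below for Dnaja4 (-0.46), Dnajc4 (-0.24), Dnajc8 (-0.33), Dnajc11 (-0.33) and Dnajc25 (-0.26). Dnajb4, Dnajb5, Dnajb6, Dnajc6, Dnajc12, Dnajc21 and Dnajc27 had log2 changes between 0.01 and 0.84 with overlapping groups, and Dnajb12, Dnajc7, Dnajc9, Dnajc13, Dnajc24 and Dnajc30 between -0.36 and -0.07. Dnajc17, a splicing-associated J protein, had 1.02 (SE 0.49), with 1235, 451 and 682 against 1416, 2806 and 845. Among these genes a further probe set was called lower for Dnaja2 (-2.08, against the sign of its 3 other probe sets), Dnaja4 (-0.78) and Dnajc13 (-1.43). Other probe sets that were not called also bear on these directions. For Dnajc14, another had every tumor below every wild-type sample (-0.33) and another overlapped (0.05), so no direction is given for it. Another probe set overlapped at 0.12 for Dnajc8, 0.06 for Dnajc11 and 0.42 for Dnajc28. Every tumor lay below in another probe set of Dnajc21 (-0.62), Dnajb6 (-0.86) and Dnajb12 (-0.37), and above in another of Dnajc24 (0.16). Dnajb3 and Dnajb8, known from testis, and Dnajb7 did not reach 100 on any array, and Dnajc22 reached it on 1 (tumor 2, 108). In all, 6 of the 8 genes that failed the filter had no array at 100.

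The partners of the Hsp70 and Hsp90 machines gave few calls. Of 17 tested Hsp90 co-chaperone genes, 2 fell, 0 rose and 15 did not pass (11.8% called, beside 27.2% of all genes). Ppp5c, a phosphatase that binds Hsp90, read 1386, 1363 and 1295 against 856, 917 and 930 and fell by 0.56 (SE 0.13, adjusted p = 0.0192). Ttc4, another adaptor of Hsp90, fell by 0.55 (SE 0.15, adjusted p = 0.0331). The calls did not hold without wild-type replicates 1 or 3 or tumor replicate 2, that of Ppp5c also without tumor replicate 1 and that of Ttc4 also without wild-type replicate 2 or tumor replicate 3. The highest adjusted p in these fits was 0.0852 for Ppp5c and 0.0994 for Ttc4. Stip1, the adaptor between Hsp70 and Hsp90, had a log2 change of 0.01.

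Of 9 further Hsp70 partner genes, 1 rose, St13 (0.51, SE 0.14, adjusted p = 0.0307), whose protein steadies Hsp70 on its client; the mean over its probe sets gave -0.17 and the hybridisation controls -0.53. Of 14 tested genes of the cytosolic chaperonin and prefoldin, which fold actin and tubulin, 1 rose, the ring subunit gene Cct4 (0.62, SE 0.18, adjusted p = 0.0406), at -0.43 with the hybridisation controls and 0.15 over the mean of its probe sets. These single calls are 11.1% of the 9 partner genes and 7.14% of the 14 chaperonin and prefoldin genes, beside 27.2% of all genes. St13 was called in 1 of the 6 fits without 1 sample (without tumor replicate 3), and Cct4 in 1 (without tumor replicate 1), with adjusted p up to 0.125 for both. In the list of heat shock factor genes, 5 were named on the array and only Hsbp1 passed the filter, with -0.09 (SE 0.17). Hsbp1 encodes a binding protein of heat shock factor 1 and not a heat shock factor.

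Spread within the groups differed by gene. The SD of log2(signal + 32) was larger among tumors in 45 of the 68 genes (66.2%), beside 61.5% of all genes tested, and the median SD was 0.218 in tumors and 0.152 in wild-type samples, beside 0.238 and 0.185 over all genes. Each wild-type sample was a pool of females, so spread between single wild-type mice was not measured. Dnajb13 had the widest tumor spread (SD 1.27, against 0.0201 in wild-type samples), followed by Dnajc12 (0.897), Dnajc17 (0.850), Dnajb12 (0.814) and Bag3 (0.762). The spread had no common direction: of the 13 higher genes, the highest tumor was tumor 1 in 4, tumor 2 in 5 and tumor 3 in 4. Dnajc27 varied among the wild-type samples instead, at 304, 330 and 27.4.

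**Figure D4:**
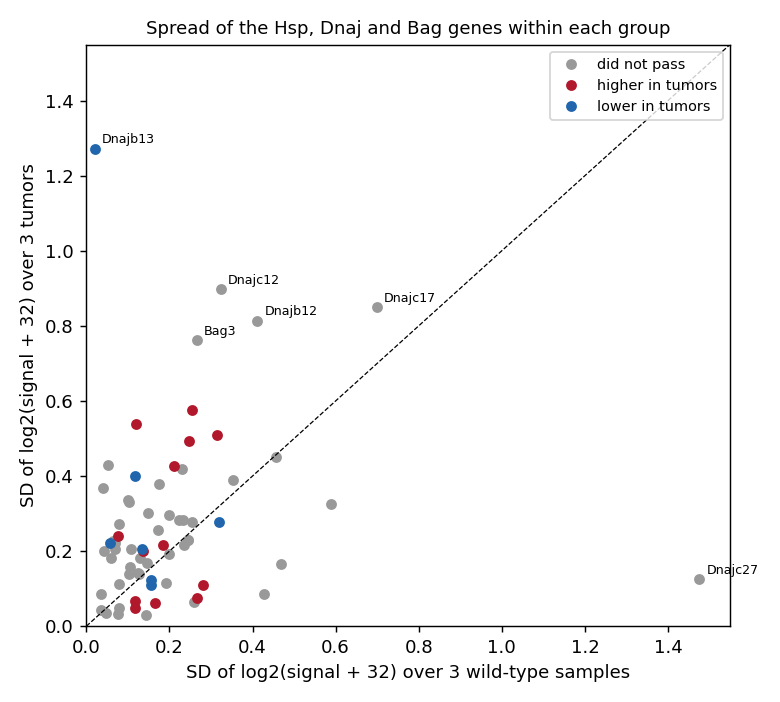
SD of log2(signal + 32) over the 3 tumors against that over the 3 wild-type samples for the 68 tested genes; the dashed line marks equal spread and colours mark the calls. 45 genes lie above the line, with Dnajb13 at the top left and Dnajc27 at the far right.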

How the data were processed

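The deposited values, linear intensities with a single signal for each probe set on each array, were used; per the submitters' processing notes they came from MAS5 (wild-type arrays) and GCOS (tumor arrays), with no version given. Each array was scaled again to a trimmed mean of 500 (2% left out at each end). Of 45101 probe sets, 64 were controls, 34945 carried 1 symbol in GEO's platform annotation, 932 several and 9160 none. For each gene the single-symbol probe set with the highest mean signal was taken, then kept with at least 100 on at least 3 of 6 arrays. Log2(signal + 32) was fitted with limma 3.58.1 in R 4.3.3 (lmFit, eBayes, 2-sided, Benjamini-Hochberg over all 11600 genes), with Python 3.11.15, pandas 2.3.3 and matplotlib 3.10.9 for tables and figures. SE is limma's. Fits of every probe set covered 21001 probe sets. "At least" folds set the dimmer group to 100 where all its arrays lay below. On simulated data with 11600 genes the fit recovered 44 of 100 genes changed by 1 (log2) and 87 of 100 changed by 2. In the arrays 27.2% of genes were called, and recovery at such a share was not tested.

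The genes, lists and tests were chosen with earlier results of these data known. Named genes are well-known members fixed by name, up to 4 called genes of each family in each direction (or the smallest p), and up to 3 of each partner list; other genes are given by values only. The 19 alternatives cover pseudocount, filter, scaling, probe set, variance model, replicate block and leaving out each sample. Not all of them could end a given call. Hspa1a, Dnajb11, Dnajb13 and Dnajc15 had 1 probe set each, so the choices of probe set left their values as they were. Scaling to the hybridisation controls moved the median of all genes to -1.0, so it could hardly end a lower call. The main fit has no block. Scanner files, detection calls and a genome were not used here.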

Additional observations from a re-analysis of the deposited data

How the results depend on the processing

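Over 40 named genes and up to 19 alternatives, 600 of 756 values kept their direction and their side of the threshold, 120 lost the call (73 of them in fits without 1 sample), 6 gained one and 30 turned sign, 18 of these with scaling to the hybridisation controls. For the Hsp, Dnaj and Bag genes the higher calls were 13, and 7 without the filter, 8 with the replicate block, 0 with the hybridisation controls and 2 to 12 without 1 sample; the lower calls were 7, and 39 with the hybridisation controls. Samples with the same number did not deviate together (correlations -0.0442, 0.0280 and 0.0908), so the block has no stated basis. For all genes the higher calls were 1686, and 376 with the hybridisation controls and 870 to 1703 without 1 sample; the lower calls were 1467, and 916 with median scaling, 7796 with the hybridisation controls and 663 to 1406 without 1 sample.

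With the hybridisation controls the log2 fold change was -0.45 for Hspa8, -0.35 for Hspa9, -0.65 for Hsp90aa1, -0.95 for Hsp90b1, -0.87 for Hspd1, -0.96 for Hspe1, -0.30 for Bag3, -0.032 for Bag2, -0.41 for Bag1, -0.80 for Hspbp1, -0.47 for Dnaja3, -0.41 for Dnajb2, -0.39 for Dnajc2, -0.58 for Dnajc5, -0.53 for St13, -0.43 for Cct4, -0.32 for Ddit3 and -0.12 for Clpx. Other turned values were Hspa8 at -1.54 with probe sets of shared suffix avoided, Hsp90b1 at -0.11 with quantile normalization and -0.31 over the mean of probe sets, St13 at -0.17 over that mean, and, with median scaling, Dnajb1 at 0.073 and Hsbp1 at 0.0062. Without 1 sample Hsp90b1 ranged from -0.10 to 0.33, Hspe1 from -0.020 to 0.26, Dnajb1 from -0.16 to 0.10 and Hsbp1 from -0.19 to 0.0029. The cause of these changes was not tested, except that fits without a sample have fewer samples and those with another filter test other genes. Without a detection call, a signal near 100 limits what can be said of dim genes.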

Other observations

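A probe set that carries the symbols of both Dnajc19, a J protein of mitochondrial import, and its pseudogene gave signals of 1893, 1471 and 1624 in wild type against 1243, 1178 and 1034 in tumors, with no overlap between the groups. It was left out of the tests because its signal belongs to no single gene. The other 2 probe sets with these symbols overlapped between the groups.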
